A study of Mus musculus with 12 samples.

Results

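The genes described here build the axoneme, the microtubule core of cilia and sperm flagella, or carry its parts. They were taken by symbol as every gene named Dnahc or Dnah, Dnaic or Dnai, Dnalc or Dnal, Tekt, Ift or Rsph with a number, and they came to 37 of the 22293 genes measured once in every library. They were 10 axonemal dynein heavy chains, 4 dynein intermediate or light chains, 6 radial spoke proteins, 5 tektins and 12 proteins of intraflagellar transport (IFT). Their levels were read from RNA-seq of mouse germ cells with and without Zmym3, a zinc finger protein found in LSD1-containing repressor complexes. The files held 12 libraries from CBA/C57 mice. Cultured cells gave 8 libraries, 2 for each of KO c-KIT+ cells, WT c-KIT+ cells, KO SSCs and WT SSCs. SSCs are spermatogonial stem cells, and c-KIT+ cells were obtained from them with 100 nM retinoic acid (RA) for 36 h. Sorted spermatocytes gave 4 libraries, 1 each for KO and WT at 5 and at 7 months.

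The labels gave the cultured cells as from mice of 2 months, while the methods describe lines derived from pups or adults. The KO was whole-body, from a CRISPR-Cas9 deletion in exon 2 of Zmym3 that shifts the reading frame, so somatic cells of the testis carried it too. The study derived WT lines from littermates. Spermatocytes were sorted by tetraploid DNA content and light scatter, and cells of other types can pass such a sort. Nothing says that the 2 libraries of a cultured group came from separate cultures, so each p-value reflects the scatter among these libraries alone, perhaps only technical.

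Cilia and flagella share an axoneme in which doublet microtubules ring a central pair. Dynein arms on the doublets slide them past each other, radial spokes pass signals from the central pair to the arms, and tektins are filaments inside the doublet wall. Motors of IFT carry building material along the axoneme in trains of IFT-B and IFT-A complexes. Spermatogonia bear at most a short primary cilium without motile parts, and male germ cells assemble a flagellum after meiosis.

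Promoter windows of the annotated gene starts show which letters known from cilia genes lie beside these genes. RefSeq promoters of GRCm38.p6, from 250 bases before to 50 bases after the start, were matched for 32 of the 37 genes, in 35 windows. Regulatory factor X (RFX) proteins, which switch on many cilia genes, bind X-boxes, and their half-site was searched as GTTGCC on both strands. The half-site was present in 12 of the 32 genes and in 13 of the 35 windows, while 4111 of all 32851 promoters (12.5%) held it. The longer form GTTGCCATG, of which the half-site is the start, was in 0 of the 35 windows and in 0.773% of all promoters. The cyclic AMP response element TGACGTCA, the site of CREB and CREM factors, was in 2 of the 35 windows and in 1.79% of all promoters. A match describes letters and does not show that a factor binds.

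Tekt1 and Tekt2 are shown because each held the half-site once on each strand, Ift57 because it held both motifs, Dnahc6 for the response element, and Dnahc5 and Dnahc17 because they had the lowest and the highest change between cell states of the heavy chains and held neither. The windows lie at chr11:72361833-72362132, minus strand (Tekt1), chr4:126325639-126325938, minus strand (Tekt2), chr16:49699044-49699343, plus strand (Ift57), chr6:73221582-73221881, minus strand (Dnahc6), chr15:28203516-28203815, plus strand (Dnahc5) and chr11:118129170-118129469, minus strand (Dnahc17). Capitals mark the half-site on either strand and the response element.
Tekt1: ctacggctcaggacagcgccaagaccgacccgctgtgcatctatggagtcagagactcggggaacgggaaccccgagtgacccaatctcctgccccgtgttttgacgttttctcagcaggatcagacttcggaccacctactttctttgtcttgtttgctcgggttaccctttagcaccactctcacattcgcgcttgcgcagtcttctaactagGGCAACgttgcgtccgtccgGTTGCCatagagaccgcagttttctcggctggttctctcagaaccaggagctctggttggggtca
Tekt2: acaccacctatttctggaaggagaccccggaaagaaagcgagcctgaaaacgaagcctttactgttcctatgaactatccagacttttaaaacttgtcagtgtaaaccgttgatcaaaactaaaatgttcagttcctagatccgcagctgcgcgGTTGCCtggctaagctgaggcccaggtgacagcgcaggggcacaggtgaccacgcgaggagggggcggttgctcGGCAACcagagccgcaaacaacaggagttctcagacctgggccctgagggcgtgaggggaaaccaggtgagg
Ift57: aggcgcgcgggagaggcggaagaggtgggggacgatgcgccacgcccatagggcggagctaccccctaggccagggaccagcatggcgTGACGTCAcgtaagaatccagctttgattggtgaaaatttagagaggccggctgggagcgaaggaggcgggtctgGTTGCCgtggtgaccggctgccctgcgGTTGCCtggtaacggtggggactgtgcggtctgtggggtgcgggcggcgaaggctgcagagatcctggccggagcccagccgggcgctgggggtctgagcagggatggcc
Dnahc6: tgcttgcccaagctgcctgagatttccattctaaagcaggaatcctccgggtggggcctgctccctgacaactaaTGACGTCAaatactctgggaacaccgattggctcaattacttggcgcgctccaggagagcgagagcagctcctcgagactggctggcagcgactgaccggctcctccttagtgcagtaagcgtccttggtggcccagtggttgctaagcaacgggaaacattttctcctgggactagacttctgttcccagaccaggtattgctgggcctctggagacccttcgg
Dnahc5: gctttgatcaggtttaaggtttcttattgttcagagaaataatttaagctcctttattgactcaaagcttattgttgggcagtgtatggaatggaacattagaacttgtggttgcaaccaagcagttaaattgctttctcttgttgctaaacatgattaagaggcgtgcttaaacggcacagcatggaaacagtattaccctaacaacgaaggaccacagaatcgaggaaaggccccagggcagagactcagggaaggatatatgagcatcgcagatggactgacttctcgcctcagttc
Dnahc17: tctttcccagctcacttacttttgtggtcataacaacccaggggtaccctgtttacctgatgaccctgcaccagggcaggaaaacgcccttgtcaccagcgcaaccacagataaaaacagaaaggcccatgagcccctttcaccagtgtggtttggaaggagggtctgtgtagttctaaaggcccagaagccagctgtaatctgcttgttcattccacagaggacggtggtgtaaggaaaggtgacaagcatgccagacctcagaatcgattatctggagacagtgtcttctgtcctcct
In Tekt1 the half-sites began 35 and 15 bases before the gene's start, and in Tekt2 96 and 22 bases before it. Of the tektins Tekt4 also held 1, and Tekt3 and Tekt5 held none.

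Values are FPKM, that is fragments corrected for the length of the transcript and the size of the library, and differences are of log2(FPKM + 1), a scale that understates the change of low genes. The knocked-out gene was lower in the cultured KO libraries: Zmym3 stood at 9.19 and 9.76 FPKM in KO SSCs, against 40.2 and 37.4 FPKM in WT SSCs. It stood at 10.0 and 11.3 FPKM in KO c-KIT+ cells, against 39.9 and 39.7 FPKM in WT c-KIT+ cells. In spermatocytes it was too low to be tested between genotypes, at 0.146 and 0.340 FPKM in KO, against 0.412 and 0.460 FPKM in WT, and these values are a weak check of the labels. Summed FPKM lay between 262493 and 274670 in 11 libraries and at 302340 in WT SSC library 1. Fragment numbers could be recovered for 1 library only, WT spermatocytes at 5 months, with about 12694173 fragments on genes. The spacing of low values put the depth of the others at 0.915 to 1.22 times that. In spermatocytes 14 of 15 pachytene markers were called higher than in SSCs, for WT as for KO. Of the 15, 4 passed the filter, 1 FPKM or more in at least 2 libraries, only through spermatocytes, and the 11 others were all called higher in WT. Of all genes 26.1% were called higher and 59.7% lower in WT, and 25.6% higher in KO. Spermatid markers were called higher too, 19 of 19 in WT and 18 in KO, with 16 of the 19 passing only through spermatocytes. Of 6 Sertoli markers tested 4 were higher in WT and 1 lower. Of these 6, 3 passed only through spermatocytes, and the 3 that passed in cultured libraries gave 2 higher and 1 lower. The 12 markers of multiciliated epithelium were mixed: of 8 tested 4 were called higher in WT spermatocytes than in WT SSCs and 3 lower. Of these 8, 3 passed the filter only through spermatocytes. Among the 5 that passed in cultured libraries 1 was called higher and 3 lower, with a median log2 difference of -1.57. Dynlrb2 stood at 54.2 to 109 FPKM, 1110017D15Rik at 12.1 to 16.8 FPKM and Fam183b at 3.02 to 7.76 FPKM over the 4 spermatocyte libraries, while Tmem212 and Sntn were listed at 0 in all 12 libraries and Ccdc153 reached at most 0.259 FPKM.

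The largest contrast was between cell states. Of the 37 genes, 33 were higher in every spermatocyte library than in every cultured library, and 2, Dnahc5 and Dnahc9, were lower in every one. The share of all genes separated in this way was not computed, so these 2 counts have no background beside them. At 10 FPKM or more in all 4 spermatocyte libraries stood 31 genes, and 11 stayed under 1 FPKM in all 8 cultured libraries. In the fit of all libraries (limma on log2(FPKM + 1), Benjamini-Hochberg adjustment, adjusted p under 0.01), 32 of the 34 genes tested were called higher in WT spermatocytes than in WT SSCs and 1 lower. Of all 13247 genes tested, 85.9% were called, 26.1% higher and 59.7% lower. The filter, 1 FPKM or more in at least 2 libraries, sets part of this count: 9 of the 34 passed it only through spermatocytes and had to be higher there. They were Dnahc2, Dnahc6, Dnahc10, Dnahc17, Dnaic2, Rsph6a, Tekt3, Tekt4 and Tekt5. Dnahc9, Dnahc11 and Rsph4a, low everywhere, did not pass. Of the 25 that passed on the cultured libraries alone, 23 were called higher, 1 lower and 1 was not called, with a median log2 difference of 2.90. The median was 3.21 for the 34 genes and -0.89 for all genes. KO spermatocytes against KO SSCs, tested on those 34 genes, gave the same counts, 32 higher and 1 lower, with 85.2% of all genes called, 25.6% higher and 59.6% lower. Against WT c-KIT+ cells, WT spermatocytes again had 32 higher and 1 lower, with 85.8% of all genes called, 24.7% higher and 61.1% lower. Sorted testis cells and cultured cells differ in more than stage, so stage, culture and sorting cannot be told apart. In such bulk samples, fewer cells of a type and less RNA per cell cannot be told apart either. Other scalings moved the median of all genes by up to 0.89 for the WT comparison, and all 33 calls kept their direction and their side of the threshold. Of all genes called in WT spermatocytes against WT SSCs, 30.4% were higher, 49.5% with median-ratio scaling and 43% with quantile normalization. The shares were 30.1%, 49.3% and 43.4% in KO, and 28.8%, 49.5% and 42.1% against WT c-KIT+ cells.

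**Figure D1:**
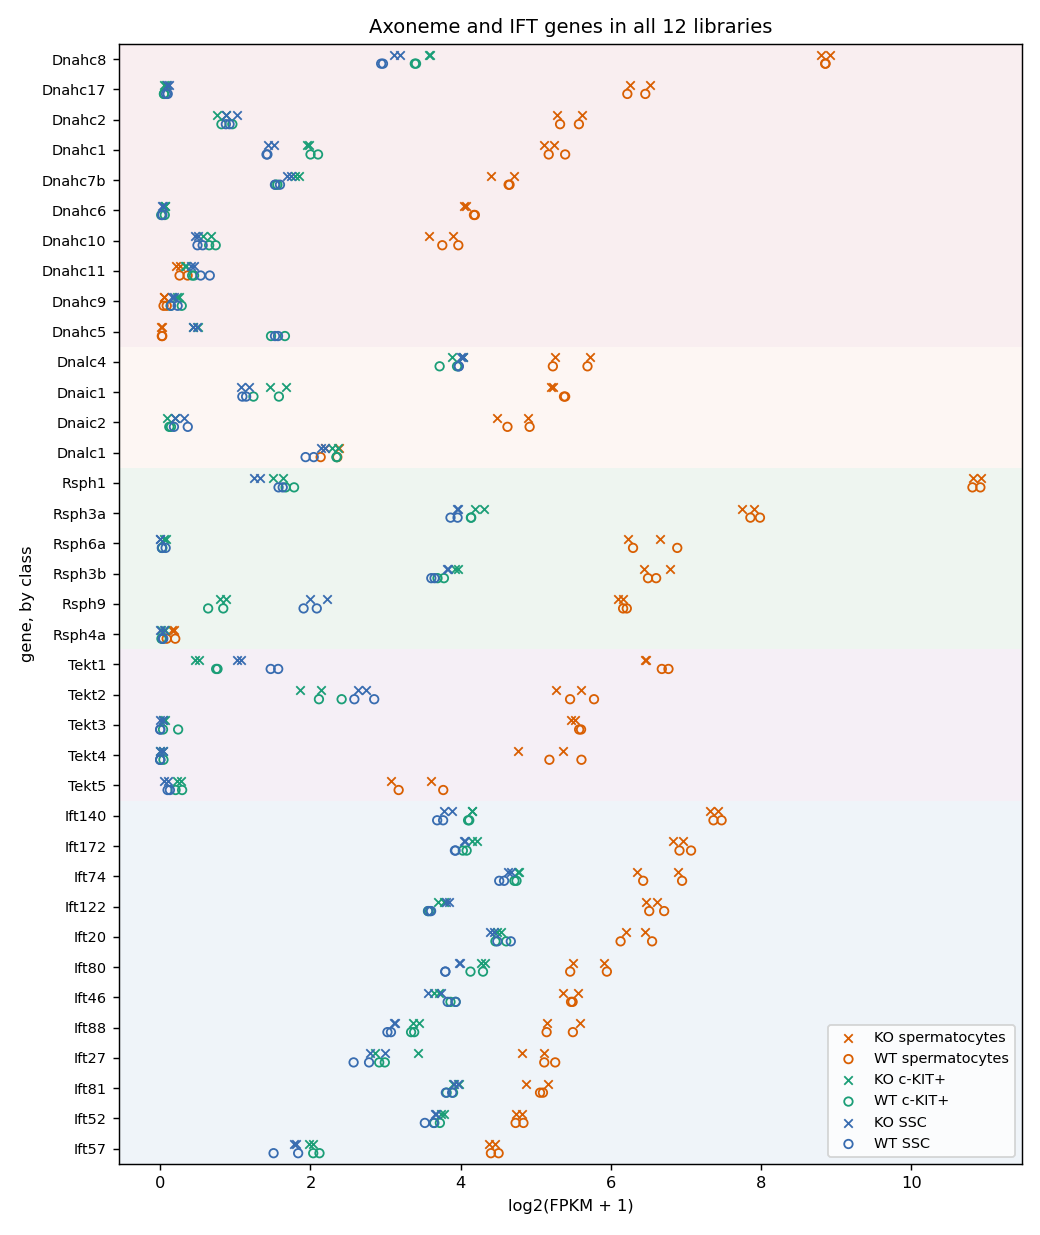
Level of each of the 37 genes as log2(FPKM + 1) on the horizontal axis, grouped by class, with 1 mark per library (crosses KO, circles WT). Spermatocytes (orange) lie to the right of both cultured states for 33 genes, and Dnahc5, Dnahc9, Dnahc11 and Rsph4a stay under 1 FPKM in all 4 spermatocyte libraries.

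Among the heavy chains, the motors of the dynein arms, 7 of 10 rose in spermatocytes and 1 fell. Of the 7, 4 had passed the filter only through spermatocytes. Dnahc8, an outer arm heavy chain of sperm, was the most abundant, at 463 and 461 FPKM in WT spermatocytes at 5 and 7 months and at 482 and 443 FPKM in KO spermatocytes. It stood at 6.81 and 6.68 FPKM in WT SSCs and at 7.65 and 8.12 FPKM in KO SSCs, so no spermatocyte library came near a cultured one. The log2 difference of WT spermatocytes and WT SSCs was 5.90 (SE 0.07, adjusted p = 2.34e-11, limma).

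Dnahc17, also an outer arm heavy chain, had the largest difference of the heavy chains, 6.25 (SE 0.10). It passed the filter only through spermatocytes, so the direction of its test was set in advance. It reached 73.5 and 86.9 FPKM in WT spermatocytes and 75.3 and 90.9 FPKM in KO spermatocytes, against at most 0.0888 FPKM in any cultured library. The gene lies on chromosome 11 of mm9 from 117883037 to 117990533, where the entry of Pgs1 overlaps it, and the files do not say whether counting used strand. Dnahc2, an inner arm chain, stood at 39.0 and 46.6 FPKM in WT spermatocytes, against 0.832 and 0.896 FPKM in WT SSCs. The other inner arm chains, Dnahc1, Dnahc6, Dnahc7b and Dnahc10, lay between 10.9 and 40.9 FPKM over the 4 spermatocyte libraries. Dnahc6 started from 0.0499 FPKM or less in cultured cells, while Dnahc1 and Dnahc7b were already at 1.67 to 3.29 FPKM there. Dnahc7b belongs to a group of near-identical copies, so its reads may be shared among them.

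Not all outer arm heavy chains followed. Dnahc5, Dnahc9 and Dnahc11, which serve motile cilia such as those of the airways, were each at 0.288 FPKM or less in all spermatocyte libraries. In the WT library of 5 months this was 6 fragments for Dnahc5, 11 for Dnahc9 and 70 for Dnahc11, beside 171836 for Dnahc8 and 27617 for Dnahc17. Dnahc5 fell to 0.0151 and 0.0191 FPKM in WT spermatocytes, against 1.97 and 1.88 FPKM in WT SSCs, a log2 difference of -1.52 (SE 0.08, adjusted p = 5.13e-08, limma). That lies below the median of all genes, -0.89. The paired order of chains in spermatocytes was therefore Dnahc8 far above Dnahc5, and Dnahc17 far above Dnahc9 and Dnahc11, in each of the 4 libraries.

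The intermediate chains, which hold the outer arm together at its base, rose. Dnaic1 stood at 40.9 and 40.5 FPKM in WT spermatocytes, against 1.21 and 1.13 FPKM in WT SSCs. Dnaic2 stood at 23.6 and 29.2 FPKM, against 0.290 and 0.135 FPKM, the largest difference of this class (4.50, SE 0.15), but it passed the filter only through spermatocytes. Their cultured and spermatocyte values did not overlap in either genotype. The light chain Dnalc4 was at 36.5 and 50.6 FPKM in WT spermatocytes, against 14.7 and 14.7 FPKM in WT SSCs.

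Dnalc1, a light chain of the outer arm, was the exception. It had 4.13 and 3.40 FPKM in WT spermatocytes and 4.20 and 3.58 FPKM in KO spermatocytes, against 3.12 and 2.82 FPKM in WT SSCs and 3.41 and 3.58 FPKM in KO SSCs, and the groups were close or overlapped. The log2 difference in WT was 0.26 (SE 0.10, adjusted p = 0.0292, limma) and not called. Leaving out 1 library moved the value between 0.15 without the WT spermatocytes of 5 months (adjusted p = 0.203) and 0.37 without those of 7 months (adjusted p = 0.00853, called). It was also called with median-ratio scaling (1.15, adjusted p = 6.3e-06) and with quantile normalization (1.25, adjusted p = 1.21e-06).

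Of the 6 radial spoke genes 5 were tested, and all 5 rose in spermatocytes, Rsph6a having passed the filter only through them. Rsph1, a protein of the spoke head, was the highest of all 37 genes, at 1934 and 1797 FPKM in WT spermatocytes and 1952 and 1809 FPKM in KO spermatocytes. Cultured libraries had 1.37 to 2.44 FPKM, so even the lowest spermatocyte library was far above them. Its log2 difference in WT, 9.26 (SE 0.08, adjusted p = 1.31e-11, limma), was the largest of the 34 tested. Rsph3a, a spoke stalk gene, stood at 231 and 252 FPKM in WT spermatocytes, against 14.5 and 13.6 FPKM in WT SSCs, and its near-copy Rsph3b at 96.1 and 89.1 FPKM, against 11.6 and 11.2 FPKM. The 2 copies may share reads, so the split between them is uncertain.

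The spoke head paralogues Rsph6a and Rsph4a parted. Rsph6a, known from sperm, stood at 77.5 and 117 FPKM in WT spermatocytes and at 74.1 and 99.2 FPKM in KO spermatocytes, against 0.0540 FPKM or less in every cultured library. Rsph4a, known from airway and other motile cilia, did not pass the filter and reached at most 0.149 FPKM, which was 13 fragments in the WT library of 5 months. Rsph9, a further spoke head protein, stood at 70.6 and 73.1 FPKM in WT spermatocytes, against 3.24 and 2.75 FPKM in WT SSCs.

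All 5 tektins rose in spermatocytes, but Tekt3, Tekt4 and Tekt5 passed the filter only through them. Tekt1 stood at 101 and 108 FPKM in WT spermatocytes, against 1.97 and 1.77 FPKM in WT SSCs, a log2 difference of 5.20 (SE 0.07, adjusted p = 2.56e-11, limma). Tekt3 stood at 46.7 and 47.6 FPKM in WT spermatocytes and was listed at 0 in both WT SSC libraries, and its difference of 5.59 was the largest of the class. Tekt4, known for its part in sperm motility in mice, was listed at 0 in 5 of the 8 cultured libraries and stood at 26.2 to 47.8 FPKM over the spermatocyte libraries. Tekt2 was the tektin with the highest level in culture, 5.00 and 6.204 FPKM in WT SSCs, beside 42.9 and 53.8 FPKM in WT spermatocytes. Tekt5 stayed the lowest, at 7.42 to 12.6 FPKM in spermatocytes.

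The IFT genes differed from the motile parts in that none of the 12 was silent in culture: 9 were at 10 FPKM or more in all 8 cultured libraries. All 12 were called higher in spermatocytes, with a median log2 difference of 2.21 in WT. Over the genes that passed the filter on cultured libraries alone, the median was 4.05 for 2 tektins, 4.10 for 4 radial spoke genes and 3.47 for 4 heavy chains. For 3 dynein intermediate or light chains it was 1.48, below that of the IFT genes. Dnalc4, Rsph3a and Rsph3b were also at 10 FPKM or more in all 8 cultured libraries. In FPKM the ratio of WT spermatocytes to WT SSCs lay between 2.42 for Ift52 and 13.9 for Ift140. Ift140, an IFT-A subunit, stood at 164 and 177 FPKM in WT spermatocytes, against 11.9 and 12.6 FPKM in WT SSCs. The IFT-B subunit Ift172 stood at 119 and 133 FPKM, against 14.3 and 14.2 FPKM, and Ift74 at 122 and 85.2 FPKM, against 21.8 and 22.9 FPKM. Ift52 was the least changed, at 27.5 and 25.6 FPKM, against 11.5 and 10.5 FPKM (1.201, SE 0.07, adjusted p = 2.21e-07, limma). Even here the groups did not overlap.

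**Figure D2:**
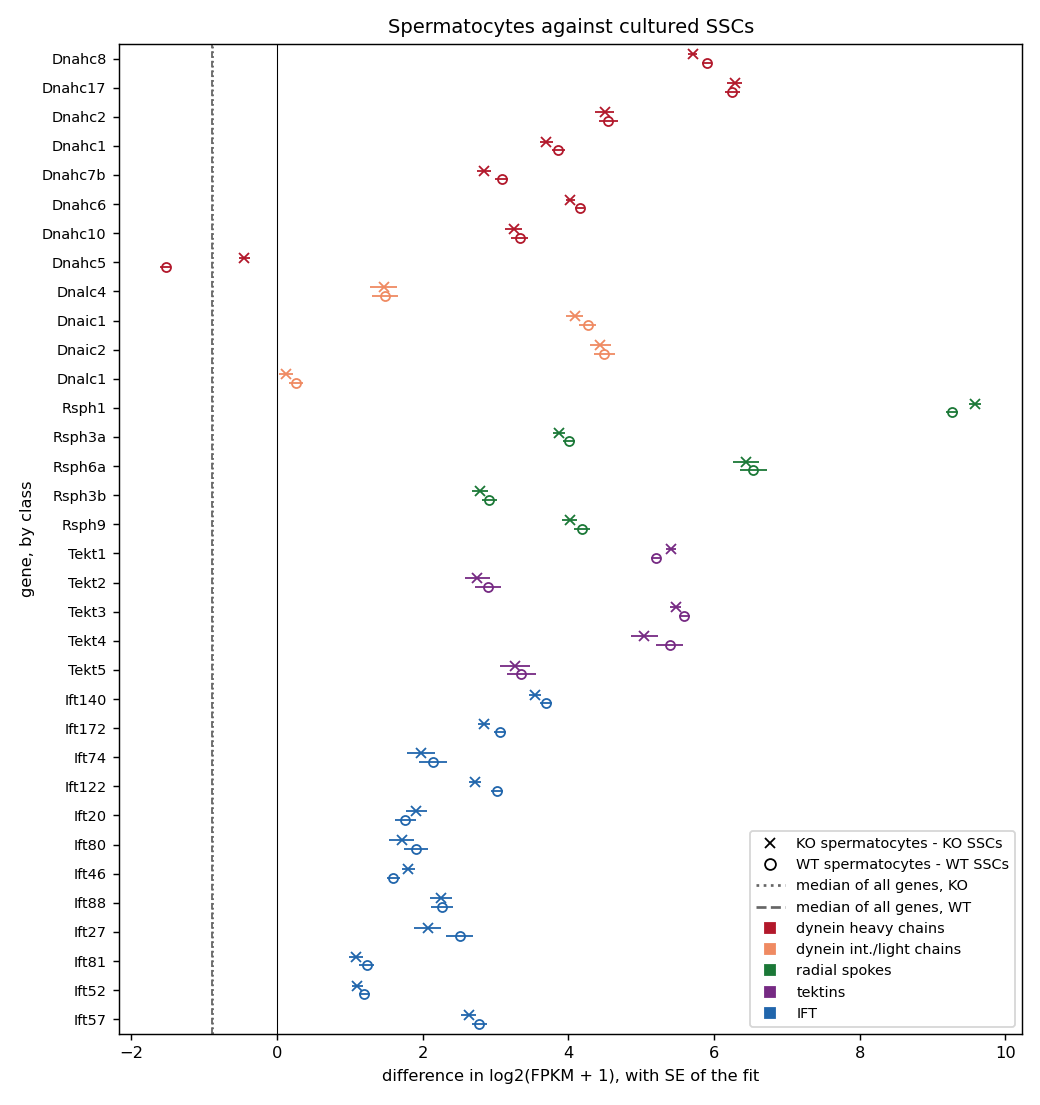
Difference in log2(FPKM + 1) between spermatocytes and SSCs for the 34 genes tested, with the SE of the limma fit (crosses KO, circles WT, colours by class). The dotted and dashed lines mark the medians of all genes, -0.87 in KO and -0.89 in WT; Rsph1 is farthest to the right and Dnahc5 is left of 0 in both.

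Genes that work beside these, from lists of other symbols, rose with few exceptions in WT spermatocytes against WT SSCs. Called higher were 9 of 9 measured genes of the central pair and 15 of 15 of the arm docking and dynein regulatory complexes, of which 5 in each list passed the filter only through spermatocytes. Of 8 other axonemal dynein chains 6 were tested and called higher, but 4 of them, Dnali1, Dynlrb2, Txndc3 and Wdr63, passed only through spermatocytes, and Tctex1d4 and Txndc6 did not pass. Spag6 of the central pair stood at 183 and 164 FPKM in WT spermatocytes, against 0.343 and 0.377 FPKM in WT SSCs. Of 13 dynein assembly factors, which preassemble the arms in the cytoplasm, 11 were higher, 6 of these having passed only through spermatocytes, and Ruvbl1, an ATPase of several nuclear complexes, was lower. Twistnb, a subunit of RNA polymerase I that stood on the same list, was left out of that count with the values known and was also lower. Of 11 inner-junction and ribbon genes 10 were higher, 1 of them, Meig1, having passed only through spermatocytes, and Efhc2 was lower. Further IFT-B genes gave 6 higher and 1 lower (Ttc30b) of 8, IFT-A genes 3 and 1 of 4, and IFT motors 8 and 1 of 10. In these 3 lists Ttc30a2 of IFT-B alone passed the filter only through spermatocytes. For the BBSome, the cargo adaptor of IFT, and its regulators Arl6 and Lztfl1, 9 of 10 were higher and none lower. Bbs12 and Mkks, chaperonin-like proteins that assemble the BBSome and are not subunits of it, were lower. They stood on the same list and were left out of that count with the values known. The full list of 12 gave 9 higher and 2 lower. Further genes that were lower were Tulp3 in IFT-A and the kinesin gene Kif3c, at 1.34 and 0.736 FPKM in WT spermatocytes, against 24.4 and 21.96 FPKM in WT SSCs. Of 17 measured cytoplasmic dynein and dynactin genes, the cargo motor of the cell body, 6 were higher and 6 lower. Of the 6 higher, Dync1i1 passed only through spermatocytes.

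Regulators of cilia genes did not move one way: of 18 measured 13 were tested, and 5 were called higher and 6 lower. Of all genes tested 26.1% were called higher and 59.7% lower. Rfx4 and Mybl1 passed the filter only through spermatocytes, and the 11 others gave 3 higher and 6 lower. Rfx2, an X-box factor of spermatogenesis in mice, stood at 92.0 and 146 FPKM in WT spermatocytes, against 2.50 and 2.35 FPKM in WT SSCs. Rfx4, Crem, Mybl1 and Tcfl5 were also called higher. Rfx1, Rfx3, Rfx5, Rfx7, E2f5 and Tfdp1 were called lower. Foxj1, the master factor of motile cilia in epithelia, was not called, at 1.23 and 4.01 FPKM in WT spermatocytes, against 2.67 and 1.92 FPKM in WT SSCs.

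RA treatment changed fewer of these genes and by less. In WT, c-KIT+ cells against SSCs had 8 of the 25 genes tested called higher and 2 lower (limma, adjusted p under 0.01), while of all 11981 genes tested 40.7% were called, 24.9% higher and 15.9% lower. In KO the counts were 6 higher and 3 lower, with 40.5% of all genes called, 24.6% higher and 16% lower. The members' share was thus near that of all genes in both genotypes, and their median log2 difference was 0.12 in each, beside 0.08 and 0.07 for all genes. With median-ratio scaling 45.4% of all WT calls were higher in place of 61.1%, with equal totals 72%, and with median-ratio scaling 45.7% of the KO calls in place of 60.6%. No called member changed direction under any of the 4 scalings, but some calls were lost. In WT 8 of the 10 calls were kept with median-ratio scaling and 8 with quantile normalization. With equal totals 9 were kept, with or without small RNA genes. In KO 7 of the 9 calls were kept with median-ratio scaling and all 9 with the other scalings.

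The decreases under RA were the larger changes. Rsph9 stood at 0.556 and 0.789 FPKM in WT c-KIT+ cells, against 3.24 and 2.75 FPKM in WT SSCs (log2 difference -1.26, SE 0.11, adjusted p = 3.85e-05, limma). In KO it stood at 0.842 and 0.731 FPKM in c-KIT+ cells, against 3.67 and 2.98 FPKM in SSCs (-1.27, SE 0.11, adjusted p = 3.69e-05, limma). The 4 treated and 4 untreated libraries did not overlap, and the gene that was lowered here stood above 67 FPKM in every spermatocyte library.

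Tekt1 stood at 0.696 and 0.676 FPKM in WT c-KIT+ cells, against 1.97 and 1.77 FPKM in WT SSCs, and at 0.436 and 0.376 FPKM in KO c-KIT+ cells, against 1.02 and 1.11 FPKM in KO SSCs. The differences were -0.77 (SE 0.08, adjusted p = 9.54e-05, limma) in WT and -0.55 (SE 0.08, adjusted p = 0.000565, limma) in KO. Tekt2 stood at 2.63 and 3.41 FPKM in KO c-KIT+ cells, against 5.23 and 5.66 FPKM in KO SSCs (-0.69, adjusted p = 0.00276, limma), and at 3.33 and 4.33 FPKM in WT c-KIT+ cells, against 5.00 and 6.204 FPKM in WT SSCs (-0.45, adjusted p = 0.0202, limma, not called). Both tektins that passed the filter were thus lower in each treated group, without overlap within a genotype.

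Among the increases, the heavy chains Dnahc1 and Dnahc8 were called in both genotypes. Dnahc1 stood at 3.29 and 3.003 FPKM in WT c-KIT+ cells, against 1.69 and 1.67 FPKM in WT SSCs (0.63, SE 0.07, adjusted p = 0.000177, limma), and at 2.86 and 2.95 FPKM in KO c-KIT+ cells, against 1.71 and 1.85 FPKM in KO SSCs (0.49, adjusted p = 0.000685, limma). Dnahc8 stood at 9.48 and 9.60 FPKM in WT c-KIT+ cells, against 6.81 and 6.68 FPKM in WT SSCs (0.44, SE 0.06, adjusted p = 0.000225, limma), and at 11.002 and 10.92 FPKM in KO c-KIT+ cells, against 7.65 and 8.12 FPKM in KO SSCs (0.43, adjusted p = 0.000271, limma). Neither gene's treated and untreated values overlapped, and both remained far under their spermatocyte levels.

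Of the IFT genes 4 were called higher with RA in WT and 3 in KO, and none lower. Ift80, of IFT-B, stood at 16.5 and 18.7 FPKM in WT c-KIT+ cells, against 12.9 and 12.9 FPKM in WT SSCs, and at 18.3 and 19.0 FPKM in KO c-KIT+ cells, against 14.96 and 14.78 FPKM in KO SSCs. Ift140 stood at 16.1 and 16.3 FPKM in WT c-KIT+ cells, against 11.9 and 12.6 FPKM in WT SSCs, and at 16.7 and 16.8 FPKM in KO c-KIT+ cells, against 13.8 and 12.7 FPKM in KO SSCs. Ift88 stood at 9.12 and 9.42 FPKM in WT c-KIT+ cells, against 7.41 and 7.14 FPKM in WT SSCs, and at 9.35 and 9.94 FPKM in KO c-KIT+ cells, against 7.74 and 7.65 FPKM in KO SSCs. All 3 had higher values in the treated libraries without overlap, with log2 differences from 0.29 to 0.42.

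The remaining calls were smaller. Ift74 stood at 25.3 and 25.8 FPKM in WT c-KIT+ cells, against 21.8 and 22.9 FPKM in WT SSCs (0.18, adjusted p = 0.00756, limma), and Dnalc1 at 4.08 and 4.10 FPKM, against 3.12 and 2.82 FPKM (0.36, adjusted p = 0.00314, limma). Rsph3a stood at 16.6 and 16.6 FPKM in WT c-KIT+ cells, against 14.5 and 13.6 FPKM in WT SSCs (0.23, adjusted p = 0.00996, limma), and at 17.2 and 18.8 FPKM in KO c-KIT+ cells, against 14.6 and 14.4 FPKM in KO SSCs (0.29, adjusted p = 0.00274, limma). Over the alternatives the WT call was lost in 12 of 18 for Ift74, 11 of 18 for Rsph3a and 4 of 17 for Dnalc1. The KO call of Rsph3a was lost in 3 of 18. Without WT c-KIT+ library 1 or 2 only 6 of the 10 WT calls were left each time, and without KO SSC library 1 or 2 the KO calls were 5 and 4. Only Dnahc1, Rsph9 and Tekt1 changed by 1.5-fold or more in WT on this scale.

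The response to RA was not shown to differ between genotypes for any of these genes. In the interaction (limma) 0 of 25 were called and 0 had an unadjusted p under 0.05, and 0% of all 11981 genes were called, with 865 at an unadjusted p under 0.05. The 95% interval of such a difference was not computed, and the missing call does not show that the responses were alike.

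**Figure D3:**
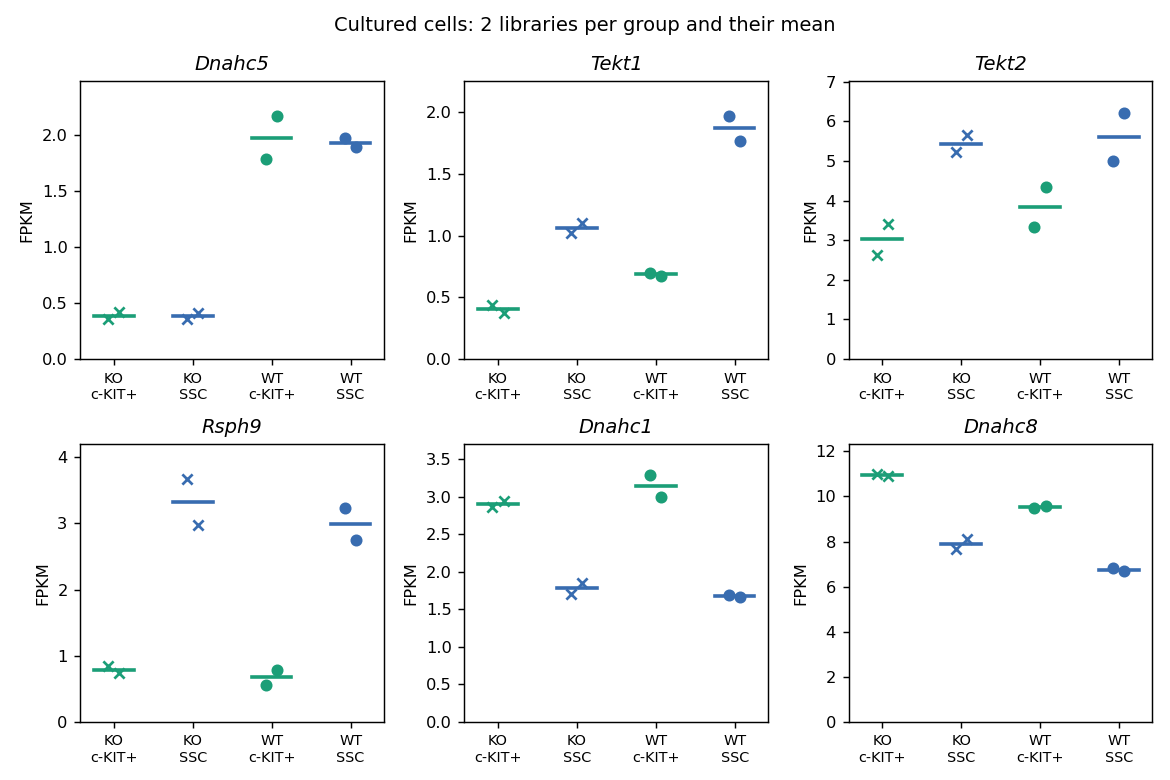
FPKM of 6 genes in the cultured libraries, with 1 point per library and a line at the mean of the 2 (crosses KO, dots WT; green c-KIT+ cells, blue SSCs). Dnahc5 is below 0.43 FPKM in all 4 KO libraries and above 1.7 FPKM in all 4 WT libraries, and Rsph9 and Tekt1 are lower in c-KIT+ cells than in SSCs of the same genotype.

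Loss of Zmym3 in cultured cells was accompanied by a called change in 2 of these genes. In SSCs 2 of 25 were called lower and none higher (limma, adjusted p under 0.01), beside 4.9% of all genes called, 2.79% lower and 2.11% higher. In c-KIT+ cells 1 was called lower and none higher, beside 2.7% of all genes called, 1.59% lower and 1.11% higher. The median log2 difference was 0.09 (SSCs) and 0.07 (c-KIT+ cells) over the 25 genes, and 0.01 over all genes in each. Of all calls in SSCs 43.1% were higher, and 64.7% with equal totals.

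Dnahc5 was the gene called in both. It stood at 0.353 and 0.408 FPKM in KO SSCs, against 1.97 and 1.88 FPKM in WT SSCs, and at 0.353 and 0.421 FPKM in KO c-KIT+ cells, against 1.78 and 2.16 FPKM in WT c-KIT+ cells. The KO and WT libraries did not overlap in either state, and the gene was not called with RA in either genotype (0.02, adjusted p = 0.868 in WT and 0.01, adjusted p = 0.951 in KO, limma). Mean FPKM in KO was 0.198 times that of WT for SSCs and 0.197 times for c-KIT+ cells. The log2 differences were -1.08 (SE 0.09, adjusted p = 0.000303, limma) and -1.10 (SE 0.09, adjusted p = 0.000357, limma), and the call held without any 1 library, with adjusted p up to 0.00463 and 0.00413. The gene lies on chromosome 15 of mm9 from 28133521 to 28401800, with no other entry over it.

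Many fibroblast and peritubular genes were also lower where Dnahc5 was lower. Of 12 such genes tested, 7 were called lower without Zmym3 in SSCs, 6 in c-KIT+ cells, and none higher. Of all genes 2.79% were called lower in SSCs and 1.59% in c-KIT+ cells. Myh11, too low to be tested, was higher in KO, at 0.614 and 0.631 FPKM in KO SSCs, against 0.330 and 0.382 FPKM in WT SSCs. Fbln1 was nearly level, at 26.7 and 25.8 FPKM in KO SSCs, against 27.5 and 26.4 FPKM in WT SSCs. The summed level of the 14 markers measured was 137 and 134 FPKM in KO SSCs, against 184 and 175 FPKM in WT SSCs, and 127 and 124 FPKM in KO c-KIT+ cells, against 162 and 166 FPKM in WT c-KIT+ cells. None of the 14 was at 0 in a cultured library, and Dcn, a defining fibroblast gene, stood at 1.56 and 2.28 FPKM in KO SSCs, against 3.38 and 2.63 FPKM in WT SSCs. The 12 multiciliated epithelium markers summed to 102 and 105 FPKM in KO SSCs, against 97.9 and 88.6 FPKM in WT SSCs, but Epcam, a general epithelial gene also found in spermatogonia, made up 93.6 and 96.9 FPKM in KO SSCs, against 87.3 and 80.3 FPKM in WT SSCs. The median marker stood at 0.312 and 0.296 FPKM in KO SSCs, against 0.525 and 0.499 FPKM in WT SSCs. Of 5 of these markers tested, Foxj1 was called higher and Krt18 lower in KO SSCs, and Krt18 alone was called, lower, in KO c-KIT+ cells. The part of such cells in the Dnahc5 level was not tested.

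Tekt1 was called lower in KO SSCs, at 1.02 and 1.11 FPKM, against 1.97 and 1.77 FPKM in WT SSCs (-0.48, SE 0.08, adjusted p = 0.00777, limma). In KO c-KIT+ cells it stood at 0.436 and 0.376 FPKM, against 0.696 and 0.676 FPKM in WT c-KIT+ cells (-0.26, adjusted p = 0.0972, limma, not called). The KO libraries were below the WT libraries in both states. The call in SSCs was lost when any 1 of the 8 cultured libraries was left out, with adjusted p between 0.0118 and 0.0594. Of the other genes of the pathway, the calls in KO SSCs were Efcab6, a calmodulin-like axoneme gene (0.90, adjusted p = 0.00052, limma), Foxj1 (0.84, adjusted p = 0.00217, limma) and Kif3c (0.33, adjusted p = 0.00903, limma), all higher, and the dynein light chain Dynll2 (-0.30, adjusted p = 0.00928, limma). No list of the pathway had a call in KO c-KIT+ cells.

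The change between cell states was called different between genotypes for 1 gene. The interaction of stage and genotype called Dnahc5 (1.08, SE 0.11, adjusted p = 0.00362, limma), 1 of 34 genes tested, beside 0.702% of all 13247 genes, of whose calls 59.1% were higher and 48.4% with median-ratio scaling. The gene was near 0 in spermatocytes of both genotypes, at 0.00669 and 0.0167 FPKM in KO, against 0.0151 and 0.0191 FPKM in WT, so the interaction rests on the values in SSCs. Without 5 of the 8 libraries compared, each left out in turn, the call was lost: KO SSC 1 and 2, WT SSC 1 and 2 and WT spermatocytes at 7 months, with adjusted p between 0.0111 and 0.0255.

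In spermatocytes, KO and WT were compared with age in the model (limma, adjusted p under 0.05, 1 residual degree of freedom). None of the 33 genes tested was called, and 7 had an unadjusted p under 0.05. Of all 9350 genes tested 1.67% were called, 1.34% lower and 0.332% higher, and 1098 had an unadjusted p under 0.05 (limma). The median log2 difference was -0.06 over the 33 genes and -0.01 over all genes. In KO 19 of the 33 were lower at both ages and 4 higher at both. Of all 9350 genes tested 3129 (33.5%) were lower at both ages and 2157 higher at both.

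The 5 genes with the largest difference of one sign at both ages were lower in KO, and 3 of them were tektins. Tekt4 stood at 26.2 FPKM in KO, against 35.3 FPKM in WT, at 5 months and at 40.2, against 47.8 FPKM, at 7 months (-0.33, SE 0.06, adjusted p = 0.0866, limma). Tekt1 stood at 86.6, against 101 FPKM, and at 87.2, against 108 FPKM (-0.26, SE 0.04, adjusted p = 0.0655, limma). Tekt2 stood at 37.5, against 42.9 FPKM, and at 47.7, against 53.8 FPKM (-0.18, adjusted p = 0.2, limma). With the remaining Tekt3 and Tekt5, all 5 tektins had KO to WT ratios under 1 at both ages, between 0.743 and 0.944, none of them called.

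Ift27, a small GTPase of IFT-B, stood at 33.4, against 37.3 FPKM, at 5 months and at 27.2, against 33.6 FPKM, at 7 months (-0.22, adjusted p = 0.201, limma). Dnaic1 stood at 36.4, against 40.9 FPKM, and at 36.0, against 40.5 FPKM (-0.17, adjusted p = 0.26, limma). The most abundant genes had ratios near 1: Rsph1 had KO to WT ratios of 1.01 and 1.01, Dnahc8 of 1.04 and 0.962 and Ift140 of 0.969 and 0.970. Rsph3b turned with age, from a ratio of 0.894 at 5 months to 1.23 at 7 months.

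**Figure D4:**
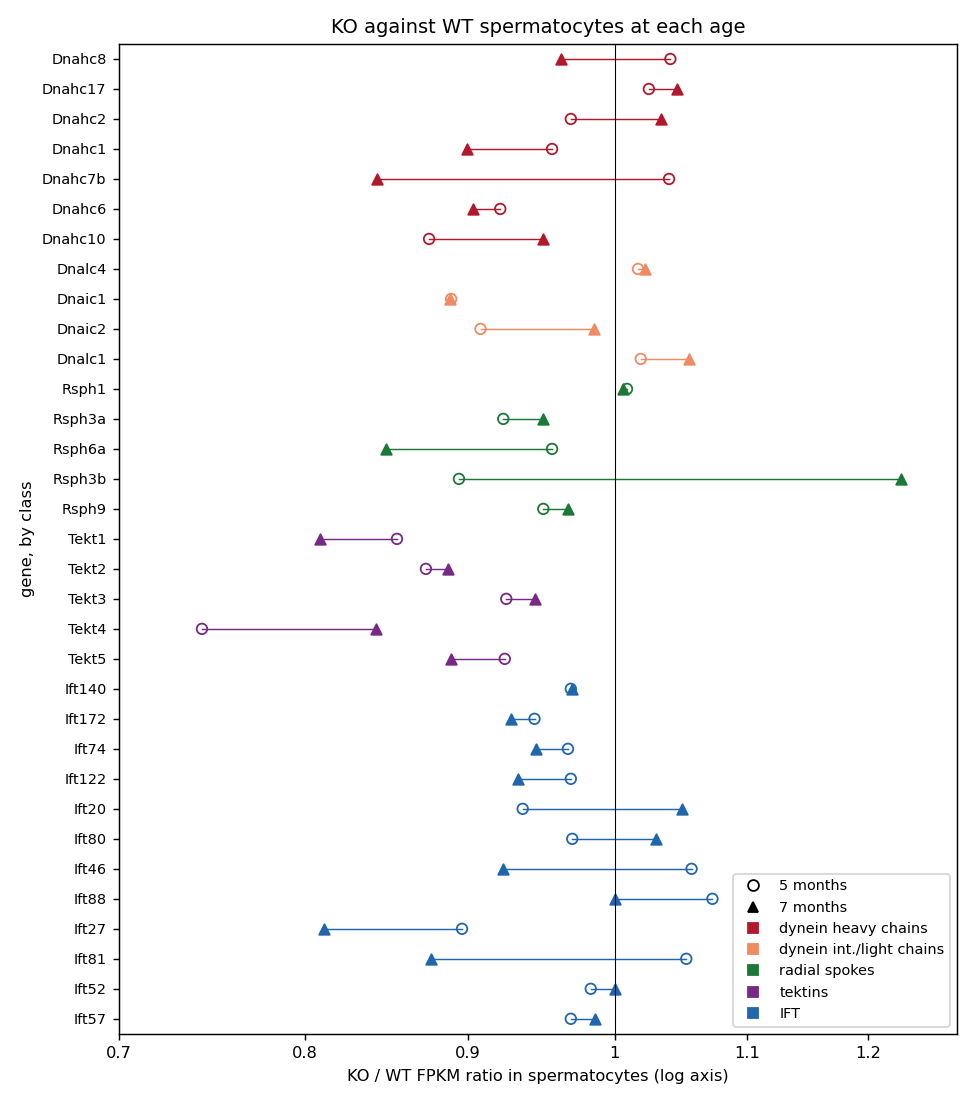
Ratio of FPKM in KO to WT spermatocytes for the 33 genes tested, on a log axis, with circles for 5 months and triangles for 7 months, 1 library per genotype and age. The 5 tektins lie left of 1 at both ages, and Rsph1 and Ift140 lie within 0.04 of 1.

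Markers of other cells moved with genotype in these 4 libraries. Of 19 spermatid markers 14 were called lower in KO and none was higher, with summed levels of 769 and 905 FPKM in KO, against 1153 and 1216 FPKM in WT. Sertoli markers summed to 62.7 and 165 FPKM in KO, against 24.8 and 35.6 FPKM in WT, with Clu called higher among 5 tested and none of the 11 measured at 0 in KO. None of the 15 pachytene markers was called. Among other genes of the pathway, Kif17 (-0.80, adjusted p = 0.0461, limma), a kinesin that also acts in spermatids, the dynein light chain Dynlrb2 (-0.30, adjusted p = 0.0495, limma) and Dynlt1a of cytoplasmic dynein (-0.63, adjusted p = 0.0484, limma) were called lower, and the assembly factor Lrrc6 (0.45, adjusted p = 0.0398, limma) higher. The part of spermatid or Sertoli RNA in the values of the tektins was not tested.

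Between the ages most IFT genes were lower and the tektins higher at 7 months, while the other classes were mixed. These are ratios of 1 library to 1 library, given without a test. At 7 against 5 months, 9 of the 12 IFT genes were lower in KO and in WT, and the 3 that were higher in both were Ift122 and Ift140 of IFT-A and Ift172 of IFT-B. Ift74 had a ratio of 0.680 in KO and 0.696 in WT, Ift80 of 0.752 and 0.708, and Ift88 of 0.727 and 0.780. All 5 tektins were higher at 7 months in both genotypes, Tekt5 with ratios of 1.51 in KO and 1.57 in WT and Tekt4 with 1.54 and 1.35. Rsph6a had 1.34 and 1.51 and Dnalc4 1.39 and 1.39. Of 7 heavy chains 2 were lower and 4 higher in both genotypes, of 4 intermediate or light chains 2 and 2, and of 5 radial spoke genes 1 and 3. Over the 33 genes 14 were lower and 17 higher at 7 months in both genotypes, beside 3789 and 4016 of all 9350 genes.

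**Figure D5:**
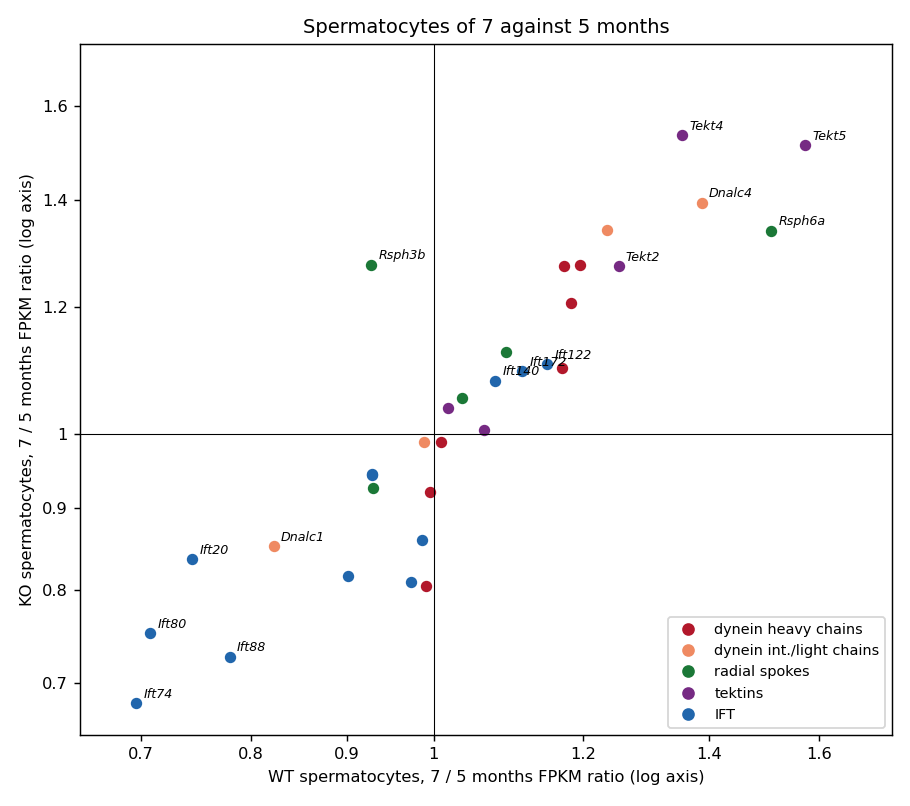
Ratio of FPKM at 7 months to 5 months in KO (vertical) and WT (horizontal) spermatocytes for the 33 genes tested, on log axes, 1 point per gene and colours by class. IFT genes such as Ift74 and Ift80 are at the lower left, tektins are above and right of 1, and Rsph3b is higher in KO and lower in WT.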

How the data were processed

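RNA-seq of 12 libraries was read as FPKM. The deposited FPKM were made by the authors with TopHat2 2.0.6, Cufflinks 2.0.2 and the mm9 build, as the submitters' processing notes list them, and Cuffdiff is also named. The gene annotation and strand are not given in the sources used here. Each library file holds 1 FPKM per entry, and only symbols that occur once were kept, 22293 in all. Positions and confidence limits came from the WT spermatocyte library of 5 months, the only one that has them here, and gave whole fragments within 0.02 for 78.8% of 5137 low genes. For the other libraries counting intervals were not computed.

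Values were taken as log2(FPKM + 1) and genes with 1 FPKM or more in at least 2 libraries of a fit were tested with limma 3.58.1 in R 4.3.3, two-sided and moderated with a variance trend, and p-values were adjusted after Benjamini and Hochberg across every gene in the fit. Separate sets of libraries were fitted: the 8 cultured libraries with 1 mean per group, the 4 spermatocyte libraries with genotype and age, and all 12 with 1 mean per cell state and genotype, where the spread of the spermatocyte pairs includes age. Calls were at an adjusted p under 0.01, and under 0.05 for KO in spermatocytes. The fits were tested on simulated data. Groups came from the labels.

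The 37 genes and the lists of other genes were chosen with earlier results of these data known. Values of the libraries compared are given for genes called in RA, KO or interaction comparisons, for the 3 most abundant of each class in WT spermatocytes, for those with the largest and smallest change between states, and for the 5 with the largest KO difference in spermatocytes of one sign at both ages. Other genes of the lists are named after their values were seen. Alternatives were a pseudocount of 0.1, no filter or one at 5 FPKM, equal totals with and without 702 small RNA genes, median-ratio scaling, quantile normalization, no variance trend, other thresholds, a minimum of 1.5-fold, only the groups compared, the replicate number as a block, no age term, and each library left out. Promoters came from RefSeq (GRCm38.p6), matched by symbol or synonym, and were not combined with mm9 coordinates. Tables were made with Python 3.11.15 and pandas 2.3.3.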

Additional observations from a re-analysis of the deposited data

Results flagged for a closer look

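Dnahc5 was the gene whose change between cell states differed between genotypes by a test of the difference itself. The interaction was 1.08 on the log2(FPKM + 1) scale (adjusted p = 0.00362, limma), from a difference of -0.45 between KO spermatocytes and KO SSCs and of -1.52 between WT spermatocytes and WT SSCs. Over the alternatives the adjusted p lay between 0.00161 and 0.0255. The gene was at 0.0191 FPKM or less in all 4 spermatocyte libraries.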

How the results depend on the processing

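No result reversed under any alternative. Of 722 alternatives over 47 gene results, 652 were counted as the same in direction and side of the threshold. A call was lost in 65 and gained in 5, all 5 for Dnalc1 in spermatocytes. The 652 include 2 single-age values each for Tekt4, Tekt1, Ift27, Tekt2 and Dnaic1, KO against WT in spermatocytes. Those values have no test. The genes were chosen for one sign at both ages, so their agreement was set in advance. Numbers of genes called are given next. RA in WT called 10 genes, 3 with a minimum of 1.5-fold and 6 with a filter at 5 FPKM, and 6 to 10 with 1 library left out. RA in KO called 9, 2 with 1.5-fold, and 4 to 10 with 1 library left out. KO in SSCs called 2, 5 at an adjusted p under 0.05, 0 with a filter at 5 FPKM, under which Dnahc5 and Tekt1 are not tested, and 1 with 1.5-fold, with a pseudocount of 0.1, with no filter, with only the groups compared, with the replicate block, and with any 1 library left out. KO in c-KIT+ cells called 1, 2 at an adjusted p under 0.05 and 0 with the filter at 5 FPKM. The cultured groups share replicate numbers, but deviations of same-numbered libraries correlated between -0.072 and 0.283, not over 0.1 in every pair, so the numbers do not pair them; the block changed no other count of calls by over 1.5 times. The stage change by genotype called 1, 0 with that filter or with only the groups compared, and 0 to 1 with 1 library left out.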
